A study of Mus musculus with 6 samples.

Results

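DNA replication and mitosis were followed through 35 genes, taken as a list of named mouse genes and matched by symbol to the gene IDs of an RNA sequencing table. All 35 were found among its 24454 rows. 15 of them act around S phase, from the transcription factor E2f1 to the enzymes of nucleotide supply. The other 20 were grouped as mitotic, among them Ccna2, the A-type cyclin of S phase and G2. All 35 also passed the filter on low values (at least 1 CPM, reads of a gene per 1000000 reads of its library, in at least 2 libraries), which left 11524 genes to test. The cells were Py2T, an epithelial line from a mouse mammary tumour. C40 cells had been given 40 µM H2O2 (hydrogen peroxide) every day over 4 months, and I60 cells 60 µM for as long. The cells named PBS had 0 µM, and the treatment notes call them untreated. Each group has 2 libraries of total RNA depleted of ribosomal RNA. The design text calls them biological duplicates, but whether they were kept apart during the 4 months is not known here. A p-value here sets a difference between groups only against the spread of libraries within groups. That spread is pooled over all 3 groups and, for each gene, drawn toward its trend over all genes tested. Whether that spread covers separately treated cultures is not known. The labels give 4 months for all 3 groups and name 1 line per concentration, so what a line would have acquired in that time in any case, and what came from H2O2, cannot be told apart.

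The libraries held 48113692 to 60260520 reads, so 1 read was worth 0.0166 to 0.0208 CPM. Among the markers of the cell type, the summed level of 9 epithelial genes was 3707 to 3849 CPM in C40 and 3093 to 3156 CPM in I60, against 7095 to 7820 CPM in PBS. 2 keratins made up nearly all of the I60 sum, Krt8 with 1707 and 1574 CPM in I60, against 1264 and 1164 CPM in PBS, and Krt18 with 1443 and 1513 CPM in I60, against 1382 and 1697 CPM in PBS. The epithelial cadherin Cdh1 was at 0.187 and 0.129 CPM in I60, against 529 and 537 CPM in PBS, and the tight junction gene Cldn7 at 0 in both I60 libraries, against 96.9 and 173 CPM in PBS. 7 mesenchymal genes summed to 8087 to 13085 CPM in C40 and 4837 to 6705 CPM in I60, against 1173 to 1751 CPM in PBS. 9 fibroblast genes summed to 188 to 731 CPM in C40 and 433 to 467 CPM in I60, against 6.31 to 7.37 CPM in PBS, and 3 of them (Lum, Thy1 and Fap) had 0 reads in every library. The 7 immune, 5 endothelial and 4 adipocyte markers summed to at most 39.3, 1.01 and 0.880 CPM in any library. The marker sums moved with the groups, and their part in the values of the replication and mitosis genes was not tested.

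As background, cells enter S phase when cyclin E and its kinase release E2F factors from the retinoblastoma proteins, and E2F then switches on genes for replication. Cdc6 and Cdt1 load the Mcm2 to Mcm7 helicase onto origins, Cdc45 helps to start it, Pcna clamps the polymerases to DNA, and Rrm2 and Tyms make deoxynucleotides. Genes of mitosis come on later, in G2, when MuvB complexes with B-Myb and FoxM1 act at promoters that often carry the CHR element and CCAAT boxes. In resting cells the same promoters are held down by the DREAM complex. In bulk RNA, fewer cells in a phase and less RNA per cell cannot be told apart.

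The promoters of members that passed the test below were read from RefSeq windows of build GRCm38.p6, from 250 bases before to 50 bases after the annotated start. A window was found for 29 of the 35 genes. Tpx2 is among the 6 without one. The 3 shown are of Top2a (chr11:99024140-99024439, minus strand), Cdt1 (chr8:122567765-122568064, plus strand) and Ccnb2 (chr9:70421505-70421804, minus strand). They were taken in order of p from the genes called against PBS, and E2f1, whose window lies inside the annotated gene, is not printed. Top2a was called lower and Cdt1 higher in both lines, and Ccnb2 lower in I60 only. Capitals mark the motifs searched on both strands: 4 E2F strings (TTTCCCGC, TTTGGCGC, TTTCGCGC and TTTGCCGC), the CHR string TTTGAA and the box CCAAT, where TTCAAA and ATTGG are the last 2 read on the other strand.
Top2a: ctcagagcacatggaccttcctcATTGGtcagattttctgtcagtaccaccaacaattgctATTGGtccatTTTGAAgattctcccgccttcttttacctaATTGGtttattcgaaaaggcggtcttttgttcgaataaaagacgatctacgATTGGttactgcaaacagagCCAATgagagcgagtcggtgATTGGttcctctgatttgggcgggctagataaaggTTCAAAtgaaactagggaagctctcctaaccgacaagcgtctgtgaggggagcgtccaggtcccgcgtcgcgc
Cdt1: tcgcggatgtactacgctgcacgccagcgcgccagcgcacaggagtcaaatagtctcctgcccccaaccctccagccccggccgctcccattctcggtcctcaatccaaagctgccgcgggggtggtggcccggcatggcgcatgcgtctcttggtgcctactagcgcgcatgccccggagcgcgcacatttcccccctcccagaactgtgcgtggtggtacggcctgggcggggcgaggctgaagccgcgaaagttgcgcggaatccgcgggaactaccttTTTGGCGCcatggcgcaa
Ccnb2: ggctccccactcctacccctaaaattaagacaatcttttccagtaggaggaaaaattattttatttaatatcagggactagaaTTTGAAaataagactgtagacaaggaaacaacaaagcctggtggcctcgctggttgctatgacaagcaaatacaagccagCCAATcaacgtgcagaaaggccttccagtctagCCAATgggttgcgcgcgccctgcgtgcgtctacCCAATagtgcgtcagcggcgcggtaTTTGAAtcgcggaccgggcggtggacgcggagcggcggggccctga

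The Top2a window holds 2 CHR strings and 6 CCAAT boxes, and the Ccnb2 window 2 CHR strings and 3 CCAAT boxes. The Cdt1 window holds 1 E2F string and neither of the other motifs. Over the windows found, a CHR string stood in 11 of 16 mitotic and 2 of 13 S-phase promoters, and in 17.9% of all 32851 windows. An E2F string stood in 1 of 16 mitotic and 6 of 13 S-phase promoters, and in 2.26% of all windows. CCAAT stood in 14 of 16 mitotic and 8 of 13 S-phase promoters, and in 37.4% of all windows. Each member counts by 1 window, while the shares of all windows may count a gene more than once. The E2f1 window, counted among the S-phase promoters, lies inside the annotated gene and holds none of the strings. No motif string overlapped another in the windows printed. A match is a string of letters and not a measured binding site.

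Few S-phase genes passed the test against PBS, and at the shares of all genes called, few calls would be made among 15. A gene that did not pass is not thereby shown to be unchanged. The replicates of the H2O2 lines lay apart. In C40, 1 of the 15 rose (Cdt1) and 0 fell by the limma test, where 11.2% of all genes tested were called higher and 9.02% lower. edgeR and DESeq2 also called 0 lower, and 2 of the 15 had an unadjusted p below 0.05 in limma. At least the 2333 of 11524 genes called in C40 had such a p, and the full share was not counted. In I60, Cdt1 again rose and E2f1 fell, while 13 did not pass, where 13.9% of all genes were called higher and 13.1% lower. The median log2 fold change over the 15 genes was -0.45 in C40 and -0.35 in I60, with 12 of 15 below 0 in each, beside medians over all genes tested of -0.024 in C40 and -0.0022 in I60. The C40 median rests on 1 library: it was 0.11 without C40 replicate 2 and -0.98 without C40 replicate 1. The I60 median was -0.09 without I60 replicate 2 and -0.48 without I60 replicate 1. Both C40 libraries lay below both PBS libraries for 5 genes and above for 2 (31.8% and 30.9% of all genes tested), and for I60 the counts were 7 and 2 (35.2% and 35.5%).

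**Figure D1:**
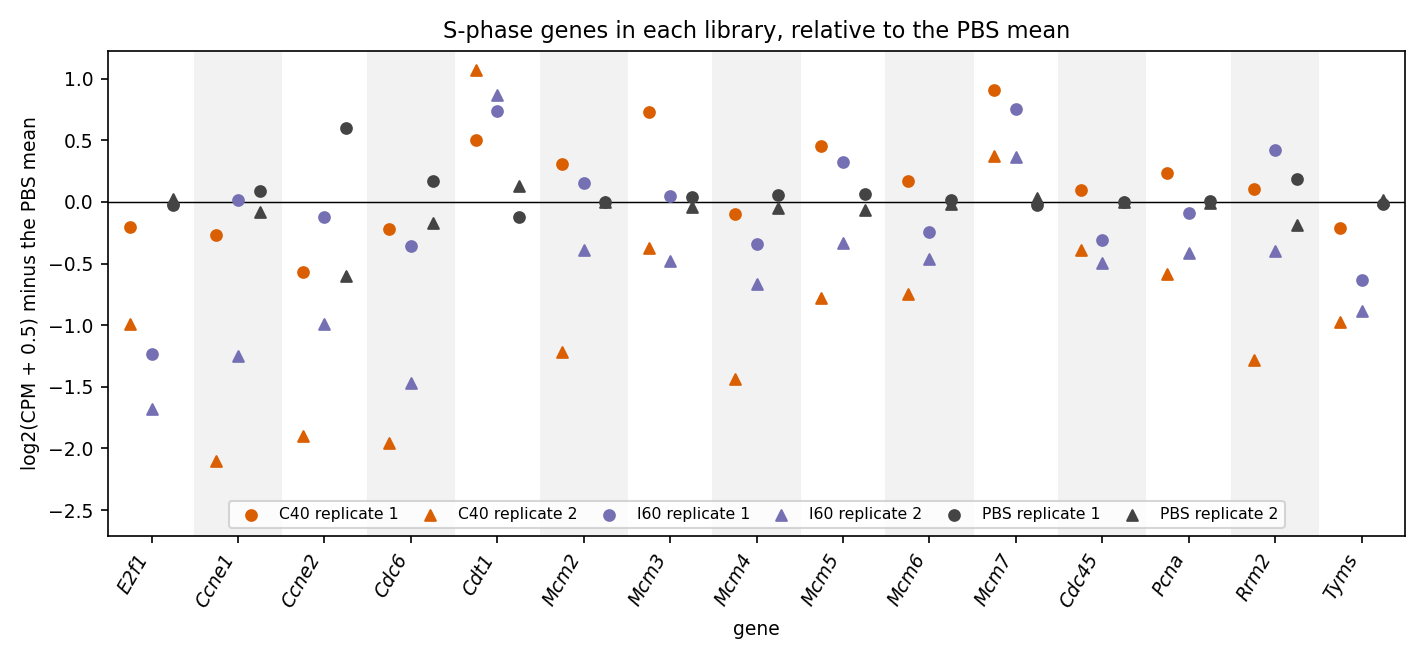
Log2(CPM + 0.5) of each of the 15 S-phase genes in every library, minus the mean of the PBS libraries of that gene. Circles are replicate 1 and triangles replicate 2, with C40 left of I60 and PBS. Cdt1 and Mcm7 lie above 0 in all 4 H2O2 libraries, and C40 replicate 2 is the lowest library for most other genes.

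Among the genes that drive entry into S phase, E2f1 (Entrez ID 13555, chr2:154559400-154569892, GRCm38) had 74.5 and 42.9 CPM in C40 and 36.2 and 26.4 CPM in I60, against 84.3 and 87.2 CPM in PBS. The C40 and I60 libraries all lay below those of PBS, and the I60 libraries also lay below those of C40. The means were 58.7 ± 22.3 CPM in C40, 31.3 ± 6.92 CPM in I60 and 85.7 ± 2.07 CPM in PBS (SD, n = 2 each). In I60 this was 2.74-fold lower than PBS by limma (log2 fold change -1.46 ± 0.29 (SE), adjusted p = 0.0106), while C40 did not pass (log2 fold change -0.60 ± 0.29 (SE), adjusted p = 0.193). Between the lines, I60 minus C40 was -0.86 ± 0.29 (SE, adjusted p = 0.142). The I60 call was lost without PBS replicate 1 (adjusted p = 0.0793), PBS replicate 2 (0.0765) or I60 replicate 2 (0.0907).

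Ccne1 and Ccne2 encode E-type cyclins, which activate Cdk2 before replication. Ccne1 had 51.4 and 14.1 CPM in C40 and 62.9 and 25.8 CPM in I60, against 66.0 and 58.6 CPM in PBS. Replicate 2 minus replicate 1 was -1.83 in C40 and -1.27 in I60 on the log2 scale, and neither line passed (adjusted p = 0.219 in C40 and 0.505 in I60). Ccne2 had 14.9 and 5.61 CPM in C40 and 20.5 and 11.0 CPM in I60, against 34.1 and 14.6 CPM in PBS, and here the PBS replicates differed too (replicate 2 minus replicate 1 -1.20, adjusted p = 0.172 in C40 and 0.513 in I60).

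The licensing factors Cdt1 and Cdc6 lay on opposite sides of PBS in both lines, and only Cdt1 passed the test. Cdt1 (Entrez ID 67177, chr8:122568015-122573130), which brings the helicase to origins and is held off by geminin, had 156 and 231 CPM in C40 and 184 and 201 CPM in I60, against 101 and 120.0 CPM in PBS. All 4 libraries of the H2O2 lines were above both PBS libraries. It rose 1.72-fold in C40 (log2 fold change 0.78 ± 0.22 (SE), adjusted p = 0.0482) and 1.74-fold in I60 (log2 fold change 0.80 ± 0.22 (SE), adjusted p = 0.0359) by limma. The C40 call was lost without any 1 library but C40 replicate 1 (adjusted p 0.0955 to 0.283) and the I60 call without any 1 of the PBS or I60 libraries (0.0975 to 0.219). In C40 edgeR (0.0504), TMM scaling (0.0516), other filters (0.0521 and 0.0818) and a fit of the 2 groups alone (0.0965) also ended the call, and in I60 no filter on low values did (0.0639). Cdc6, the ATPase that acts with Cdt1 at origins, had 64.4 and 18.9 CPM in C40 and 58.4 and 26.7 CPM in I60, against 84.5 and 66.5 CPM in PBS. Both lines lay below PBS for Cdc6, with over 2-fold between replicates in each, and neither passed (log2 fold change -1.09 in C40 (adjusted p = 0.230) and -0.91 in I60 (adjusted p = 0.294)).

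The 6 subunits of the replicative helicase did not follow one pattern. Mcm7 (Entrez ID 17220, chr5:138164583-138172111) had 479 and 331 CPM in C40 and 431 and 330.1 CPM in I60, against 251 and 261 CPM in PBS. It was the only subunit whose H2O2 libraries all lay above PBS, but it did not pass (log2 fold change 0.64 ± 0.23 (SE), adjusted p = 0.0911 in C40, and log2 fold change 0.56 ± 0.23 (SE), adjusted p = 0.113 in I60). Mcm4 went the other way, with 265 and 104 CPM in C40 and 224 and 178 CPM in I60, against 294 and 273 CPM in PBS, and did not pass either (adjusted p = 0.215 and 0.392). For Mcm2, Mcm3 and Mcm5, C40 replicate 1 lay above both PBS libraries and C40 replicate 2 below both. Mcm2 is the clearest case, with 475 and 165 CPM in C40 and 427 and 293 CPM in I60, against 384 and 384 CPM in PBS. Mcm3 had 652 and 303 CPM in C40 and 405 and 281 CPM in I60, against 404 and 381 CPM in PBS, and Mcm5 had 526 and 223 CPM in C40 and 478 and 304 CPM in I60, against 401 and 366 CPM in PBS. Mcm6 showed the same split in C40, with 494 and 261 CPM in C40 and 370.3 and 319 CPM in I60, against 444 and 434 CPM in PBS. For these 4 the PBS replicates lay close together, with replicate 2 minus replicate 1 between -0.13 (Mcm5) and -0.0032 (Mcm2) on the log2 scale.

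At the fork and in nucleotide supply, no gene passed the test. Tyms (Entrez ID 22171), the thymidylate synthase, had 89.8 and 52.8 CPM in C40 and 67.1 and 56.4 CPM in I60, against 103 and 106 CPM in PBS, so that both lines lay below PBS (log2 fold change -0.59 ± 0.26 (SE), adjusted p = 0.156 in C40, and log2 fold change -0.76 ± 0.26 (SE), adjusted p = 0.0759 in I60). Rrm2, the regulated subunit of ribonucleotide reductase, had 262 and 99.9 CPM in C40 and 325 and 185 CPM in I60, against 277 and 213 CPM in PBS. C40 replicate 2 was the low library there, and the 3 groups overlapped (adjusted p = 0.406 in C40 and 0.987 in I60). Cdc45, a partner of the helicase, had 72.6 and 51.7 CPM in C40 and 54.7 and 47.9 CPM in I60, against 67.9 and 67.6 CPM in PBS. Pcna, the sliding clamp, had 156 and 88.6 CPM in C40 and 125 and 99.6 CPM in I60, against 133 and 132 CPM in PBS. The I60 libraries of both genes lay below PBS, with log2 fold changes of -0.40 and -0.25 and adjusted p of 0.207 and 0.540 in limma.

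Most mitotic genes lay lower in both lines. In C40, 1 of the 20 fell (Top2a) and 0 rose by limma, where 9.02% of all genes tested were called lower and 11.2% higher. In I60, 4 fell (Tpx2, Top2a, Ccnb2 and Ube2c) and 0 rose, where 13.1% were called lower and 13.9% higher. edgeR and DESeq2 called 0 higher in both lines. The count lower depended on the tool: edgeR called 3 and DESeq2 8 in C40, and DESeq2 called 7 in I60. The shares of 9.02% and 13.1% are those of the main limma fit. Shares of all genes called lower by other tools, or with a library left out, are not given here, so those counts have no background. Below 0 were 18 of 20 log2 fold changes in each line, with a median of -0.72 in C40 and -0.64 in I60. With 1 library left out, these medians ran from -1.01 to -0.42 and from -0.86 to -0.52. Both C40 libraries lay below both PBS libraries for 14 genes (31.8% of all genes tested) and above for 0. Both I60 libraries did so for 14 genes (35.2%) and lay above for 1, Bub1b (35.5%). An unadjusted p below 0.05 in limma was reached by 11 genes in C40 and 9 in I60, each of them lower. Of all 11524 genes tested, at least the 2333 called in C40 and the 3122 called in I60 reached it too. The full share was not counted. The count lower in C40 was 14 without C40 replicate 1, 2 without PBS replicate 2, and 0 without any other 1 library. The count lower in I60 was 10 without either C40 library, 1 without PBS replicate 2 or I60 replicate 1, and 0 without PBS replicate 1 or I60 replicate 2.

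**Figure D2:**
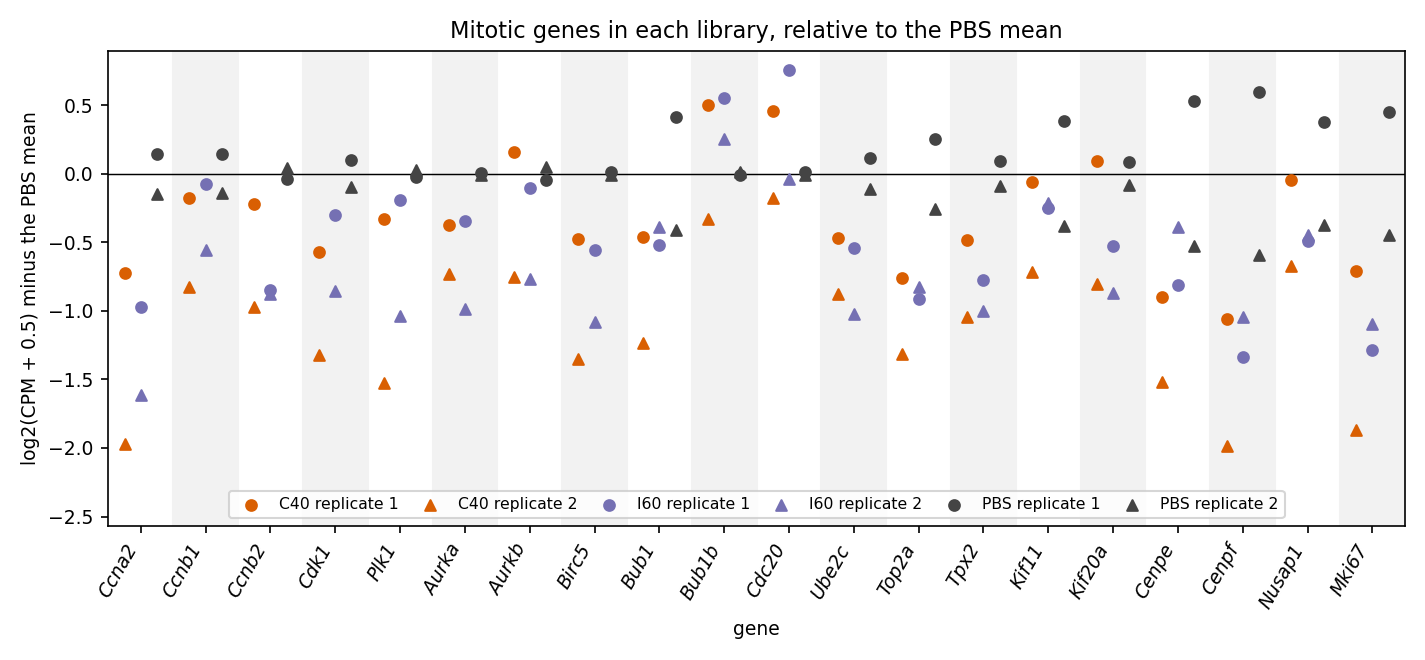
Log2(CPM + 0.5) of each of the 20 mitotic genes in every library, minus the mean of the PBS libraries of that gene. Symbols are as in the plot of the S-phase genes. Most H2O2 libraries lie below 0, Bub1b and Cdc20 lie near or above it, and the PBS replicates of Cenpe, Cenpf and Mki67 lie far apart.

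Of the cyclins and kinases, Ccnb2 (Entrez ID 12442, chr9:70407689-70421554), a B-type cyclin that partners Cdk1, had 138 and 82.0 CPM in C40 and 89.3 and 87.5 CPM in I60, against 157 and 165 CPM in PBS. All H2O2 libraries lay below PBS. By limma it fell 1.82-fold in I60 (log2 fold change -0.86 ± 0.25 (SE), adjusted p = 0.0417) and did not pass in C40 (log2 fold change -0.60 ± 0.25 (SE), adjusted p = 0.137). Leaving out any 1 PBS or I60 library lost the I60 call (adjusted p 0.158 to 0.180). Ccna2 (Entrez ID 12428), the A-type cyclin of S phase and G2, had 226 and 95.0 CPM in C40 and 191 and 122 CPM in I60, against 415 and 339 CPM in PBS. Both lines lay below PBS for Ccna2 and overlapped each other. Its log2 fold changes were larger than those of Ccnb2, and its replicates lay further apart (log2 fold change -1.35 ± 0.41 (SE), adjusted p = 0.0587 in C40, and log2 fold change -1.29 ± 0.41 (SE), adjusted p = 0.0560 in I60). Ccnb1, the other B-type cyclin, had 79.2 and 50.4 CPM in C40 and 85.3 and 60.9 CPM in I60, against 99.0 and 81.4 CPM in PBS, and its I60 libraries reached into the PBS range.

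Cdk1, the kinase that these cyclins activate, had 305 and 181 CPM in C40 and 367 and 250.2 CPM in I60, against 484 and 424 CPM in PBS, below PBS in all 4 H2O2 libraries (adjusted p = 0.0616 in C40 and 0.190 in I60). Plk1, which acts in entry, centrosome maturation and exit, had 229 and 99.8 CPM in C40 and 253 and 140.4 CPM in I60, against 283 and 294 CPM in PBS (adjusted p = 0.160 in C40 and 0.321 in I60). Aurka, the centrosomal Aurora kinase, had 185 and 145 CPM in C40 and 189 and 121 CPM in I60, against 242 and 239 CPM in PBS (adjusted p = 0.152 in C40 and 0.0850 in I60). None of these 3 kinases passed the test, although their H2O2 libraries all lay below PBS. Aurkb, the Aurora kinase of the chromosomal passenger complex, had 146 and 77.8 CPM in C40 and 122 and 77.0 CPM in I60, against 127 and 136 CPM in PBS. Birc5 (survivin), its partner in that complex, had 139.6 and 75.9 CPM in C40 and 132 and 91.8 CPM in I60, against 196 and 194 CPM in PBS. Aurkb overlapped PBS in C40 while Birc5 did not overlap in either line (log2 fold change -0.92 in C40 (adjusted p = 0.0796) and -0.82 in I60 (adjusted p = 0.0954)).

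The genes of the spindle checkpoint and of mitotic exit were split. Ube2c (Entrez ID 68612, chr2:164769929-164772902), a ubiquitin-conjugating enzyme of the anaphase-promoting complex, had 189.7 and 143 CPM in C40 and 181 and 129 CPM in I60, against 284 and 243 CPM in PBS. It fell 1.72-fold in I60 (log2 fold change -0.78 ± 0.23 (SE), adjusted p = 0.0435) and did not pass in C40 (log2 fold change -0.67 ± 0.23 (SE), adjusted p = 0.0814). Leaving out any 1 PBS or I60 library lost the I60 call (adjusted p 0.0543 to 0.242), as did edgeR (0.0576). Cdc20, which activates the same complex, had 266 and 171 CPM in C40 and 328 and 188 CPM in I60, against 195 and 192 CPM in PBS, with 1 library of each H2O2 line above PBS and 1 below. Bub1b, a checkpoint kinase, had 232 and 130.0 CPM in C40 and 240.0 and 195 CPM in I60, against 162 and 165 CPM in PBS, so that I60 lay above PBS (log2 fold change 0.40, adjusted p = 0.328). Bub1, its relative at the kinetochore, had 38.2 and 22.2 CPM in C40 and 36.6 and 40.2 CPM in I60, against 70.2 and 39.6 CPM in PBS. The PBS libraries of Bub1 lay apart, and PBS replicate 2 was near the C40 and I60 values.

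Among the genes of chromosome structure and the spindle, Top2a (Entrez ID 21973, chr11:98992947-99024199), the topoisomerase that untangles sister chromatids, had 425 and 288 CPM in C40 and 380.5 and 405 CPM in I60, against 858 and 603 CPM in PBS. It was the only mitotic gene that passed in both lines, 2.05-fold lower in C40 (log2 fold change -1.04 ± 0.25 (SE), adjusted p = 0.0275) and 1.83-fold lower in I60 (log2 fold change -0.87 ± 0.25 (SE), adjusted p = 0.0400). Its means were 357 ± 96.3 CPM in C40, 393 ± 17.7 CPM in I60 and 731 ± 181 CPM in PBS (SD, n = 2 each). The C40 call was lost without any 1 library but C40 replicate 1 (adjusted p 0.0524 to 0.205), and the I60 call without any 1 PBS or I60 library (0.059 to 0.254). With no filter on low values Top2a, Ccnb2 and Ube2c lost their calls (0.0638 for Top2a in C40, and 0.0758 to 0.0832 in I60), and with the 2 groups alone Top2a did in C40 (0.0679). Tpx2 (Entrez ID 72119, chr2:152847964-152895321), which targets Aurora A to the spindle, had 257 and 175 CPM in C40 and 211 and 180.0 CPM in I60, against 385 and 338 CPM in PBS. It fell 1.85-fold in I60 (log2 fold change -0.89 ± 0.22 (SE), adjusted p = 0.0242) and stood just short of a call in C40 (log2 fold change -0.77 ± 0.22 (SE), adjusted p = 0.0504). Leaving out any 1 PBS or I60 library lost the I60 call (0.0799 to 0.166).

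Cenpf (Entrez ID 108000) and Cenpe encode large kinetochore proteins, the second a kinesin motor. Cenpf had 73.4 and 38.6 CPM in C40 and 60.5 and 74.3 CPM in I60, against 233 and 102 CPM in PBS. Cenpe had 56.6 and 36.7 CPM in C40 and 60.2 and 80.9 CPM in I60, against 153 and 73.2 CPM in PBS. Their C40 log2 fold changes were large (-1.52 ± 0.44 and -1.21 ± 0.38, SE), and neither passed, with adjusted p of 0.0506 and 0.0659 in limma. Their PBS libraries differed over 2-fold. Mki67, the antigen Ki-67 that coats mitotic chromosomes, had 365 and 164 CPM in C40 and 244 and 280.0 CPM in I60, against 815 and 439 CPM in PBS. Its 4 H2O2 libraries lay below PBS and the PBS replicates lay apart (adjusted p = 0.0719 in C40 and 0.0780 in I60).

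Of the remaining motors and bundlers, Kif11, the kinesin that pushes spindle poles apart, had 126 and 79.4 CPM in C40 and 110.0 and 113 CPM in I60, against 171 and 100.3 CPM in PBS. Kif20a, a kinesin of cytokinesis, had 287 and 153 CPM in C40 and 186 and 147 CPM in I60, against 285 and 253 CPM in PBS. Nusap1, which binds spindle microtubules, had 40.6 and 26.1 CPM in C40 and 29.7 and 30.7 CPM in I60, against 54.6 and 32.3 CPM in PBS. Kif11 overlapped between each line and PBS, C40 replicate 1 of Kif20a lay above both PBS libraries, and Nusap1 overlapped in C40 but not in I60. None of the 3 passed the test, with adjusted p of 0.130 (Kif20a in I60) or more.

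The 2 libraries of a line did not carry the same level of these genes. Per library, the median over the S-phase genes relative to their PBS mean was 0.11 and -0.98 in C40 and -0.09 and -0.48 in I60, against 0.02 and -0.02 in PBS, on the log2 scale and replicate 1 first. The mitotic medians were -0.42 and -1.01 in C40 and -0.52 and -0.86 in I60, against 0.10 and -0.10 in PBS. In C40, replicate 2 was lower than replicate 1 for 14 of 15 S-phase genes, Cdt1 being the exception, and for 20 of 20 mitotic genes. In I60 the counts were 14 of 15 and 13 of 20, and in PBS 11 of 15 and 16 of 20. Over all genes tested, replicate 2 was the lower for 53.6% in C40, 41.7% in I60 and 53.0% in PBS. More than 2-fold separated the C40 replicates for 8 of 15 S-phase genes and 3 of 20 mitotic genes, beside 4.80% of all genes tested that were over 2-fold lower in replicate 2. The reads of all 35 genes made up 0.763% and 0.423% of a C40 library and 0.677% and 0.520% of an I60 library, against 0.880% and 0.742% of a PBS library.

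The summed CPM of the 20 mitotic genes over that of the 15 S-phase genes was 0.993 and 1.12 in C40 and 1.07 and 1.18 in I60, against 1.81 and 1.50 in PBS. All 4 H2O2 libraries lay below both PBS libraries. The mitotic sums were 3803 and 2234 CPM in C40 and 3497 and 2814 CPM in I60, against 5670.5 and 4453 CPM in PBS. The S-phase sums were 3832 and 1992 CPM in C40 and 3269 and 2385 CPM in I60, against 3129 and 2964 CPM in PBS. Replicate 1 of C40 and of I60 thus had S-phase sums above PBS, while all 4 mitotic sums lay below it. A sum is led by its highest genes. Without the 7 genes over 6000 exonic bases, Top2a and Mki67 among them, the ratios were 0.844 and 0.917 in C40 and 0.952 and 0.914 in I60, against 1.30 and 1.27 in PBS. With 2 libraries a group, an exact permutation test of a single ratio cannot go below p = 0.333, so no test is given.

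**Figure D3:**
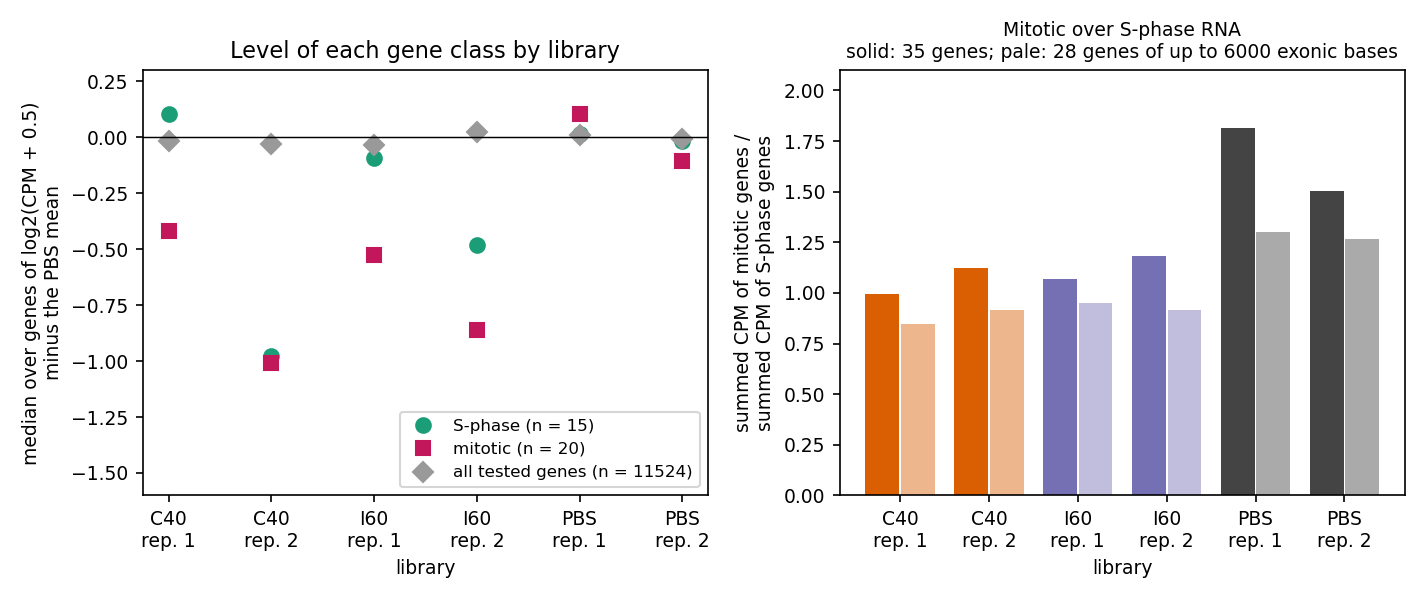
Left, the median over the 15 S-phase genes (circles), the 20 mitotic genes (squares) and all 11524 tested genes (diamonds) of log2(CPM + 0.5) minus the PBS mean of each gene, by library. Right, summed CPM of the mitotic genes over that of the S-phase genes by library, for all 35 genes (solid) and for the 28 of up to 6000 exonic bases (pale); the H2O2 libraries lie between 0.993 and 1.18 and the PBS libraries at 1.81 and 1.50 for all 35.

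Among the mitotic genes, exonic length went with the difference between replicates in I60 and PBS, in opposite directions. Of the 35, 7 genes have over 6000 exonic bases (Mcm2, Tyms, Top2a, Kif11, Cenpe, Cenpf and Mki67), a limit chosen after the values were seen. Their median replicate 2 minus replicate 1 was -0.76 in C40 and 0.09 in I60, against -0.77 in PBS, on the log2 scale. For the other 28 genes it was -0.82 in C40 and -0.48 in I60, against -0.10 in PBS. All genes tested of over 6000 exonic bases had -0.02 in C40 and 0.15 in I60, against -0.06 in PBS. Across the 20 mitotic genes, Pearson's r between log2 exonic length and this difference was -0.13 in C40 and 0.71 in I60, against -0.82 in PBS. Across the 15 S-phase genes it was -0.14 in C40 and 0.08 in I60, against 0.10 in PBS. Over 11185 tested genes with a length it was 0.03 in C40 and 0.20 in I60, against -0.13 in PBS. The genes of one r share 2 libraries and are not replicates. Between log2 exonic length and the log2 fold change against PBS, r was -0.56 in C40 and -0.34 in I60 over the mitotic genes, -0.02 and -0.05 over the S-phase genes, and -0.01 and 0.02 over all tested genes with a length. Without the 7 long genes the mitotic median was -0.60 in C40 and -0.61 in I60.

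**Figure D4:**
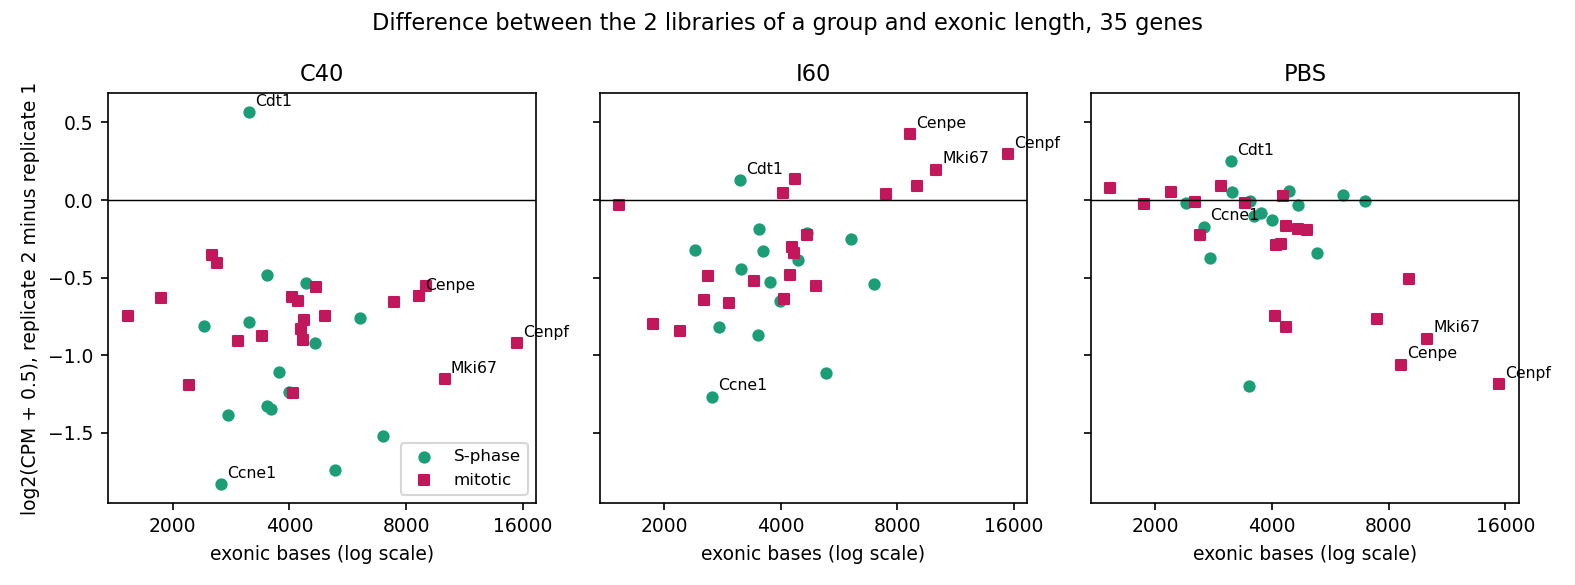
Replicate 2 minus replicate 1 of log2(CPM + 0.5) against exonic bases (log scale) in C40, I60 and PBS, 1 point for each of the 35 genes, S-phase genes as circles and mitotic genes as squares. The points fall with length in PBS (r = -0.60 over 35 genes), rise with it in I60 (r = 0.53) and show no trend in C40 (r = -0.06). The mitotic genes carry these trends (r = -0.82 in PBS and 0.71 in I60), while the S-phase genes have r = 0.10 in PBS and 0.08 in I60.

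I60 was set against C40 to ask whether both lines differ from PBS alike. Of the S-phase genes 0 of 15 passed and of the mitotic genes 0 of 20, where 5.73% of all genes tested were called lower in I60 and 3.51% higher. edgeR also called 0, DESeq2 called 1 S-phase gene lower, and E2f1 alone had an unadjusted p below 0.05 in limma. The median log2 difference was 0.02 over the S-phase genes and 0.13 over the mitotic genes, beside 0.02 over all genes. With 1 library left out, these medians ran from -0.46 to 0.40 and from -0.28 to 0.52, the ends being those without C40 replicate 2 and without C40 replicate 1. E2f1 was the 1 gene with both I60 libraries below both C40 libraries (24.4% of all genes). Cenpe was the 1 gene with both above (0.61 ± 0.38, SE, adjusted p = 0.422; 24.4% of all genes). With the C40 replicates this far apart, the estimates were wide: for Ccne1 the I60 minus C40 estimate was 0.57 with an SE of 0.62.

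Neighbours on the chromosome were counted for the 6 genes called in I60. Around Tpx2, 11 of 24 other tested genes within 1 Mb were called lower and 2 higher (median log2 fold change -0.70), and around Ccnb2 4 of 10 lower and 0 higher (median -0.63). Around E2f1 5 of 21 were called lower and 1 higher (median -0.43). Around Top2a 8 of 28 were called lower and 4 higher (median -0.28), and around Ube2c 8 of 28 lower and 5 higher (median -0.06). Around Cdt1 3 of 33 were called higher and 2 lower (median -0.12). Of the genes called in C40, Top2a had 6 of 28 neighbours called lower and 4 higher there (median -0.33), and Cdt1 2 of 33 lower and 1 higher (median 0.19), beside 9.02% and 11.2% of all genes tested. In I60 the background over all genes tested was 13.1% lower and 13.9% higher. Tpx2 and E2f1 lie close together on chromosome 2, so their windows share genes. Whether the level of a gene follows the copy number or state of its region was not tested. 8 of the 35 genes lie on chromosome 2 and 4 on chromosome 11.

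Some of these genes share sequence with another. In the RefSeq annotation, Mcm7 overlaps Ap4m1 (29.8 CPM, the mean over 6 libraries), Cdc45 overlaps Ufd1 (57.9 CPM), Ccna2 overlaps Exosc9 (42.8 CPM), Aurka overlaps Cstf1 (103 CPM) and Cdc20 overlaps Elovl1 (103 CPM). Ccne2, Kif20a and Nusap1 overlap Ints8, Brd8 and Oip5 likewise. Pcna, Tyms, Ccnb1 and Ccnb2 have pseudogenes by name. The strand setting of the counting is not known here, so reads of such pairs cannot be told apart, and the values of these genes are uncertain to that extent.

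Levels between genes can be compared per exonic length. In PBS, Plk1 stood at 131 CPM per kb of exon, followed by Ccnb2 and Mcm3 with 105 and 105, and Cdc20 with 104. In the H2O2 lines Cdc20 had 117 in C40 and 138 in I60, and Plk1 74.7 in C40 and 89.4 in I60. Mcm3 had 127 in C40, the highest of the 35 there, and 91.4 in I60, where Cdc20 was the highest. Ccne2 had 2.93 in C40 and 4.50 in I60, against 6.97 CPM per kb in PBS. It was the lowest of the 35 in C40 and PBS, and Cenpf was the lowest in I60 (4.37 CPM per kb). The gene below Cdc20 in PBS was Ube2c, with 101 CPM per kb.

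The wider machinery was read from 11 lists of genes with known roles, none of which holds one of the 35. They name 222 genes with a row, and 166 of these were tested. In C40, 10 fell, 1 rose and 155 did not pass. In I60, 16 fell, 4 rose and 146 did not pass. The median log2 fold change was -0.36 in C40 and -0.35 in I60. The shares called lower, 6.02% in C40 and 9.64% in I60, stand beside 9.02% and 13.1% of all genes tested. Of the 11 calls in C40, 0 held with any 1 library left out, and of the 20 in I60 1 did, Nasp.

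Of all genes tested, 9.02% were called lower in C40 and 13.1% in I60, and 11.2% and 13.9% higher. Around the S-phase genes, 3 of 18 E2F, Rb and DREAM regulators fell in C40 and 3 in I60. Rbl1 (p107), a pocket protein of E2F repression, was among them in both lines (log2 fold change -1.10 ± 0.23 in C40, SE, adjusted p = 0.0179, and -1.26 ± 0.23 in I60, 0.00767). So was E2f5, a repressive E2F (-1.02 in C40 and -1.20 in I60). The 1 that rose in C40 was E2f6, another repressive E2F (0.77, named after its value was seen). Of 18 genes of origin recognition and helicase activation, Dbf4, the activator of Cdc7 kinase, fell in both lines (-0.92 ± 0.19 in C40, SE, adjusted p = 0.0146, and -1.10 ± 0.19 in I60, 0.0052). Orc1, the largest subunit of the origin recognition complex, had 52.2 and 17.8 CPM in C40 and 202 and 133 CPM in I60, against 30.0 and 23.2 CPM in PBS. It rose in I60 (2.61 ± 0.48, SE, adjusted p = 0.00727), and leaving out PBS replicate 2 or I60 replicate 1 lost that call (adjusted p 0.0644 and 0.0708). Of 8 genes of chromatin assembly in S phase, the histone chaperone Nasp rose in I60, with 305 and 176 CPM in C40 and 1510 and 1206 CPM in I60, against 179 and 141 CPM in PBS (3.08 ± 0.28, SE, adjusted p = 0.000314). Both Orc1 and Nasp lie on chromosome 4, where 18 of 24 and 25 of 38 tested neighbours within 1 Mb were called higher in I60. In C40, 10 of 24 and 14 of 38 were called higher (median log2 fold change 0.76 and 0.64, against 2.87 and 1.95 in I60).

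Of 21 matched DNA polymerases and fork proteins, 0 passed in either line by limma (median -0.14 in C40 and -0.11 in I60). An unadjusted p below 0.05 in limma was reached by 3 in C40 and 4 in I60, and its share of all genes was not counted. edgeR called 0 in either line and DESeq2 2 in C40 and 3 in I60. 1 gene of that list was not matched. The shares of all genes tested called by limma were 9.02% lower and 11.2% higher in C40, and 13.1% and 13.9% in I60. Of 11 genes of nucleotide supply, Dck, a salvage kinase, fell in I60 (-1.44) and Gart, an enzyme of purine synthesis, rose (0.70). Of 62 replication-dependent histone rows 6 passed the filter. Their median log2 fold change was 0.33 in C40 and 0.54 in I60, the only list with a median above 0 in either line. All 62 rows summed to 33.3 and 27.0 CPM in C40 and 37.1 and 37.6 CPM in I60, against 26.5 and 24.2 CPM in PBS. None of the 6 was called in C40 by limma, edgeR or DESeq2 (0 with an unadjusted p below 0.05). In I60 H1f2, a linker histone, rose (1.24) and H2bc21 fell (-1.26).

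Around the mitotic genes, 3 of 21 kinesins, spindle and cytokinesis genes fell in C40 and 5 in I60, with 0 higher. For this and the next lists, the share of all genes tested called lower was 9.02% in C40 and 13.1% in I60. Ect2 and Racgap1, a pair that sets the cleavage furrow, fell in both lines. Ect2 had log2 fold changes of -1.39 ± 0.22 in C40 (SE, adjusted p = 0.00546, lost without PBS replicate 1) and -1.11 ± 0.22 in I60 (0.0104). Of 23 centromere, kinetochore and checkpoint genes, 1 fell in C40 and 4 in I60. Sgo1, the protector of centromeric cohesion, was lower in both (-0.94 in C40 and -0.84 in I60), and Ndc80, which binds microtubules, in I60 (-0.96). Of 13 cohesin and condensin genes Ncapg fell in C40 (-0.82), of 11 mitotic entry genes Bora, the activator of Plk1, fell in C40 (-0.77), and of 16 genes of the anaphase-promoting complex Anapc11 fell in I60 (-0.75). The medians of these 3 lists were -0.45, -0.69 and -0.10 in C40 and -0.33, -0.62 and -0.05 in I60.

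**Figure D5:**
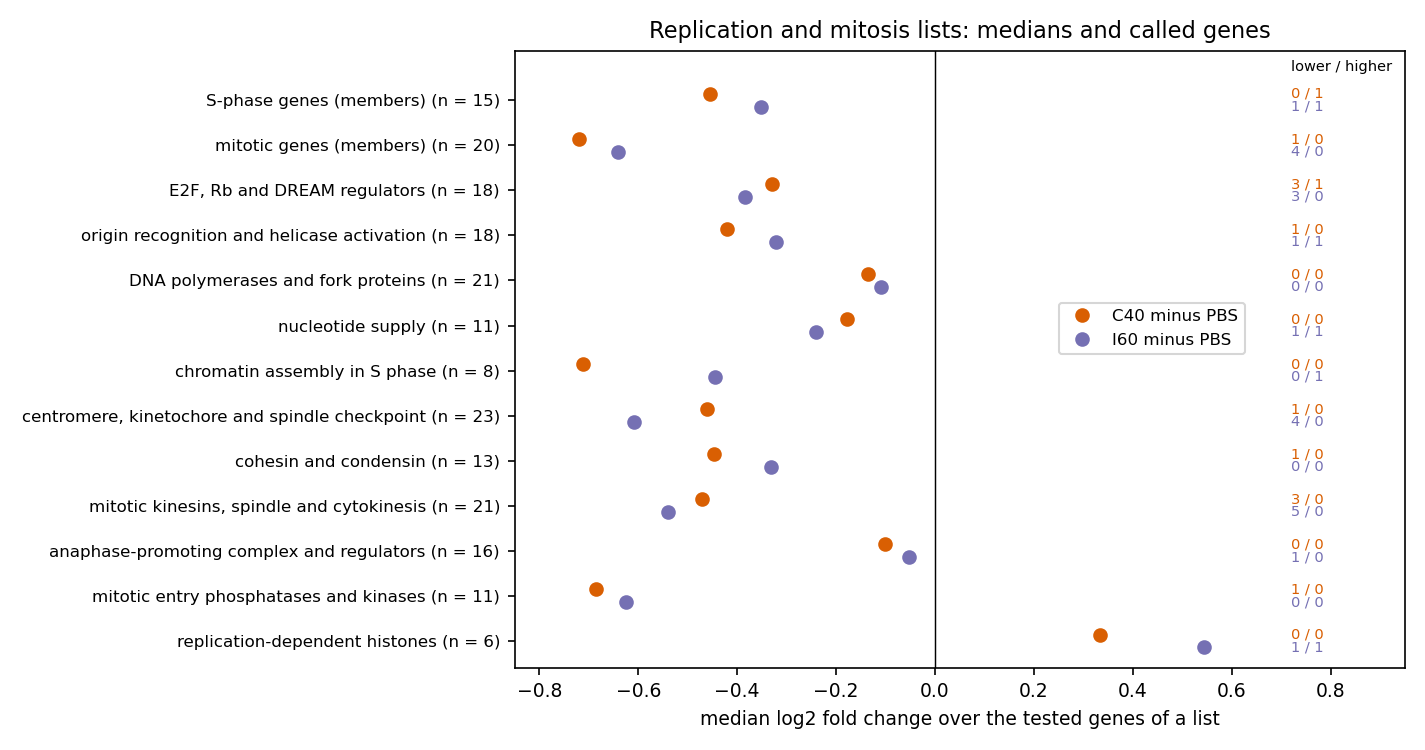
Median log2 fold change against PBS over the tested genes of each list, C40 above I60 in each row, with the number of genes called lower and higher at the right. All lists but the replication-dependent histones have medians below 0 in both lines, the polymerases and the anaphase-promoting complex closest to it.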

How the data were processed

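The authors deposited 1 table of CPM, in which each Entrez gene has a row and each library is scaled to the same total. The submitters' processing notes name STAR and build mm10. Which STAR version, counter, annotation and strand setting they used is not given in the sources at hand, and the labels' protocols name 2 differing kits for depletion of ribosomal RNA. Low values were whole multiples of 1 read (100% of values, tolerance 0.01), so whole reads were recovered for edgeR 4.0.16 and DESeq2 1.42.0. Depth was 48113692 to 60260520 reads a library. Symbols came from RefSeq (GRCm38.p6, 24374 IDs) and GENCODE, which left 73 IDs without one; exonic lengths are unions of GENCODE exons.

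Of 24454 rows, 11524 genes reached 1 CPM in 2 or more libraries and were tested with limma 3.58.1 (R 4.3.3, two-sided, intensity trend) on log2(CPM + 0.5). The 6 libraries entered 1 model of 3 groups (3 residual degrees of freedom), and p-values were adjusted over the 11524 genes (Benjamini-Hochberg). A gene was called at an adjusted p under 0.05, and fold changes are those of the model, which understates the change of low genes. CPM is relative to a library's total, and TMM scaling moved the median of all genes by at most 0.011 (log2). Full statistics are given for called genes and for the 4 genes of each class with the lowest p against PBS; of each list, up to 3 called genes per comparison with PBS are named. Members and lists were chosen with earlier results of these data known. Alternatives were other pseudocounts, filters, scaling and tools, the compared groups alone, a replicate block and leaving out each library.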

Additional observations from a re-analysis of the deposited data

Results flagged for a closer look

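In the test of whether both lines differ from PBS alike (I60 against C40, limma), 4 genes of the replication and mitosis lists passed, and 0 of the 35 genes did. Of the 166 list genes tested, 1.20% were higher and 1.20% lower, beside 3.51% and 5.73% of all genes tested. Nasp, the histone chaperone, had 1510 and 1206 CPM in I60, against 305 and 176 CPM in C40 (log2 fold change 2.541, adjusted p = 0.0021, called with any 1 library left out). Orc1, of the origin recognition complex, had 202 and 133 CPM in I60, against 52.2 and 17.8 CPM in C40 (2.407, adjusted p = 0.0228). Within 1 Mb on chromosome 4, 25 of 38 neighbours of Nasp and 18 of 24 of Orc1 were called higher in I60 against PBS (13.9% of all genes tested). In C40 against PBS, 14 of 38 and 10 of 24 were called higher (11.2% of all genes tested). Mad1l1, of the spindle checkpoint, had 85.6 and 72.3 CPM in I60, against 159.8 and 143 CPM in C40 (-0.937, adjusted p = 0.0168). Stmn1, which destabilises microtubules, had 8.33 and 7.07 CPM in I60, against 22.5 and 15.6 CPM in C40 (-1.232, adjusted p = 0.0352). The calls of Orc1 and Mad1l1 were lost without any 1 PBS or I60 library, and that of Stmn1 without any 1 library but C40 replicate 2 (adjusted p 0.0525 to 0.221 over the 3 genes).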

How the results depend on the processing

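Each of the 8 calls on the 35 genes against PBS was lost under at least 1 alternative, a library left out among them. S-phase genes called higher in C40 numbered 0 with no filter, a filter of 5 CPM, TMM scaling, edgeR or the 2 compared groups alone, where 1 was reported. Mitotic genes called lower in C40 (1 reported) numbered 3 with a pseudocount of 0.1 or edgeR, 2 with TMM scaling, 8 with DESeq2, and 0 with no filter or the 2 groups alone. In I60, no filter left 0 S-phase genes higher and 1 mitotic gene lower (1 and 4 reported). DESeq2 called 2 S-phase and 7 mitotic genes lower in I60, and the 2 groups alone 3 and 10, with 2 S-phase genes higher. I60 against C40 gave 1 S-phase gene lower in DESeq2, and 1669 calls over all genes there and 699 with the 2 groups alone, where 1064 were reported. Without the long genes the mean ratio of mitotic to S-phase RNA was 0.881 in C40 and 0.933 in I60, against 1.28 in PBS.

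Replicate numbers pair no samples by the labels, and each comparison holds 2 numbers. Replicate 2 minus replicate 1 over 11524 genes correlated at 0.44 between I60 and C40, 0.15 between C40 and PBS and 0.11 between I60 and PBS. With a replicate block, 2 S-phase genes were lower and 2 higher in C40, with 9 mitotic genes lower, and in I60 2 S-phase and 10 mitotic genes were lower.

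With 1 library left out, genes lower in C40 ran from 0 to 9 (S-phase) and 0 to 14 (mitotic), S-phase genes higher from 0 to 1, and calls over all genes from 974 to 3467. In I60 they ran from 0 to 3 and 0 to 10, S-phase genes higher from 0 to 2, and calls over all genes from 1511 to 4190. I60 against C40 ran from 0 to 1 S-phase genes lower, 0 to 3 S-phase and 0 to 1 mitotic genes higher, and 420 to 1769 calls over all genes. A group left with 1 library is assumed to vary like the others. Medians ran from -0.98 to 0.11 (S-phase, C40), -0.48 to -0.091 (S-phase, I60), -0.86 to -0.52 (mitotic, I60) and -0.28 to 0.52 (mitotic, I60 against C40). The sign turned for these log2 fold changes against PBS, none of them called, with their ranges over the libraries left out. In C40 they were Mcm2 -1.21 to 0.31, Mcm3 -0.37 to 0.73, Mcm5 -0.78 to 0.46, Mcm6 -0.75 to 0.17, Cdc45 -0.39 to 0.098, Pcna -0.58 to 0.23, Rrm2 -1.28 to 0.11, Aurkb -0.75 to 0.16, Bub1b -0.33 to 0.50, Cdc20 -0.18 to 0.46, Kif20a -0.81 to 0.093 and Nusap1 -0.74 to 0.012. In I60 they were Ccne1 -1.25 to 0.016, Ccne2 -1.16 to 0.043, Mcm2 -0.39 to 0.15, Mcm3 -0.48 to 0.046, Mcm5 -0.33 to 0.32, Rrm2 -0.39 to 0.42, Cdc20 -0.040 to 0.76 and Kif11 -0.62 to 0.15. Mcm5 in I60 also turned with TMM scaling (0.0064), edgeR (0.051) and DESeq2 (0.035). Beyond fewer libraries or more genes in a fit, the cause was not tested. Depth limits none of the 35 genes much, and 2 libraries a group set the precision.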
